A study of Mus musculus with 16 samples.

Results

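The averaged effect of BRD9 inhibition was measured over all 16 RNA sequencing libraries of mouse bone marrow-derived monocytes (BMDMs). It set 8 libraries of cells given iBRD9 against 8 libraries of cells given vector, with RANKL as a covariate. The members were chosen by treatment label alone, so the 16 libraries were the whole series. The cells came from C57BL/6 mice, and M-CSF, a survival cytokine of macrophage precursors, was present at 50 ng/ml in every culture. The groups were M + vector (M-CSF and vehicle), M + iBRD9 (M-CSF and inhibitor), MR + vector (M-CSF with RANKL at 100 ng/ml and vehicle) and MR + iBRD9 (M-CSF, RANKL and inhibitor), each with 4 libraries. According to the study, the inhibitor was present for about a day in the RANKL cultures. Neither its dose in these libraries nor the age of the mice is given in the labels. Whether the 4 libraries of a group stem from different mice or cultures is not in the labels. The p-values therefore measure the spread among these libraries only, and that spread may be technical.

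BRD9 is a subunit of the non-canonical BAF complex, an ATP-driven chromatin remodeller, and carries a bromodomain that binds acetylated lysines. iBRD9 occupies that bromodomain. RANKL starts the differentiation of monocytes into osteoclasts, the cells that resorb bone, and also raises interferon-beta, whose receptor signals through STAT2 and IRF9 to interferon-stimulated genes (ISGs). In this setting the averaged comparison asks which genes changed under the inhibitor on average over both RANKL states. A call in it does not require a change in each state.

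Total counts ranged from 15372775 to 18987926 per library. The first principal component (56.6% of variance) separated the RANKL states, and the second (5.3%) separated vector from iBRD9 libraries in both. The macrophage genes Csf1r, Adgre1, Cd68 and Lyz2 were abundant in every library, the lowest value being 1044 CPM (counts scaled to library size) for Adgre1. Other markers of the lineage were lower. Mertk was at 33.0 to 114 CPM, Fcgr1 at 94.7 to 182 CPM, and Cd14, Itgam and Spi1 at 284 CPM or more. Fcgr1 fell in the average (log2 change -0.18, adjusted p = 0.0060, edgeR quasi-likelihood test). Summed over their lists, markers of B cells, of T and NK cells and of mast cells stayed at or below 6.05 CPM in every library, with Cd3e and Fcer1a at 0. The summed markers of erythroid cells and megakaryocytes were at 201 to 231 CPM in M + vector, 189 to 238 in M + iBRD9, 105 to 120 in MR + vector and 87.9 to 98.4 in MR + iBRD9, with 3 of 11 at 0 throughout. Those of dendritic cells were at 277 to 325, 222 to 300.1, 386 to 412 and 314 to 375 CPM, none of 10 being at 0 throughout. Both sums lay lower under iBRD9 without overlap in the RANKL cultures. Most of the dendritic sum was Bst2, which is also on the ISG list used below. Bst2 was at 357 to 385 CPM in MR + vector and 279 to 339 CPM in MR + iBRD9. The median log2 change with RANKL was 0.25 over the 3 tested dendritic markers and 0.77 over the 2 tested erythroid and megakaryocyte markers. The part of such cells in the results below was not tested. Brd9 itself was at 52.3 to 57.6 CPM without RANKL and 49.8 to 60.0 with RANKL, and its averaged log2 change was -0.02 ± 0.04 (SE, adjusted p = 0.84, edgeR quasi-likelihood test). As iBRD9 binds the protein, the transcript cannot serve to check the labels.

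Of 11559 genes tested, 573 (4.96%) had an adjusted p (Benjamini-Hochberg) below 0.05 and are referred to as called, 337 lower (2.92%) and 236 higher (2.04%). The falls included Ccr2, Ccr3, Stab1, the protease gene Ctsk and most ISGs on the list used, and the rises included Ifi27, Parvg and Cxcr3. Most changes were small. The median size of a called change was 0.20 on the log2 scale, and 75 of the higher and 109 of the lower genes reached a fold of 1.2. A fold of 2 was reached by 5 genes called lower (Ly6a, Ctsk, Ccr3 and Enpp6 among them) and 3 called higher (Lat, Rufy4 and 2410004P03Rik). Enpp6 and those 3 had group means of at most 1.94 CPM, and Rufy4 was at 0 in every M + vector library, so that its fitted change is no bound. The share called grew with expression, from 0.552% of genes under 1 CPM to 10.3% of genes of 100 CPM or more. Without M + iBRD9 replicate 3 the higher calls numbered 148. With the study's own threshold (unadjusted p below 0.05 and a fold of 1.2) the calls numbered 229 higher and 186 lower.

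**Figure D1:**
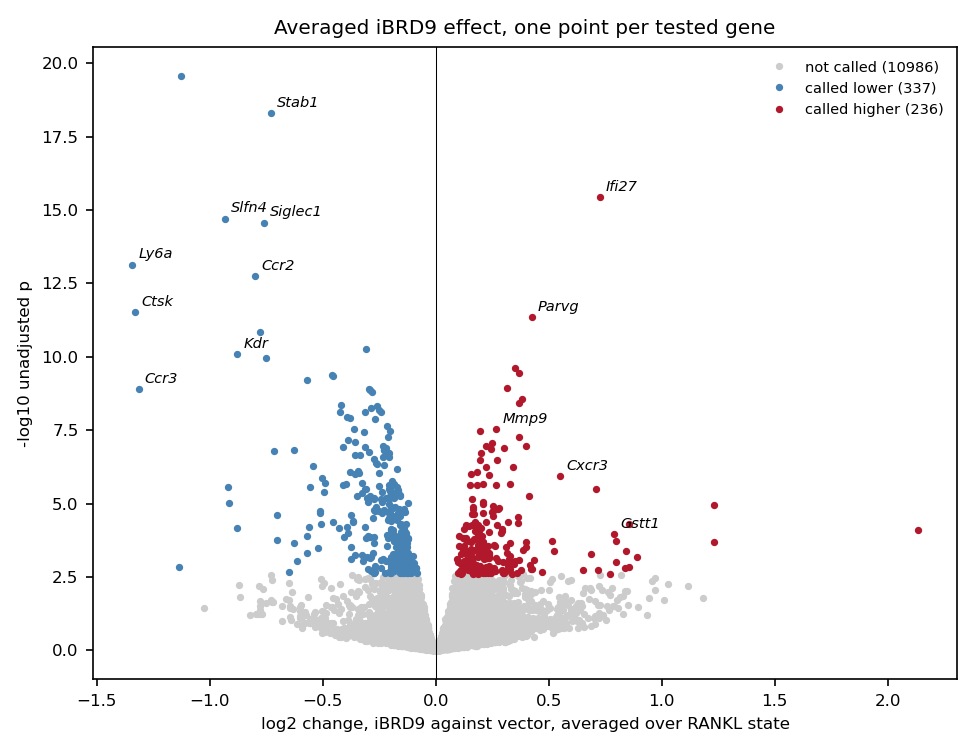
Each point is 1 of 11559 tested genes, with the averaged log2 change of iBRD9 against vector on the x axis and -log10 of the unadjusted p on the y axis. The 337 genes called lower (blue) include Stab1, Ly6a and Ctsk, while Ifi27 and Parvg have the smallest p among the 236 called higher (red).

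Ccr2, the receptor that draws monocytes out of the marrow (ENSMUSG00000049103, chromosome 9, 123901987 to 123913594, GRCm39), was among the clearest falls. Its level was 54.1, 50.2, 53.4 and 59.3 CPM in M + vector and 31.2, 37.5, 32.3 and 28.9 CPM in M + iBRD9. With RANKL it was 21.3, 25.4, 20.2 and 24.2 CPM under vector and 13.1, 13.8, 11.2 and 11.3 CPM under iBRD9. No iBRD9 library reached a vector library in either state, and the averaged log2 change was -0.80 ± 0.06 (adjusted p = 2.87e-10). Ccr3, the eotaxin receptor, was at a lower level, 8.37 to 12.3 CPM in M + vector and 3.03 to 5.24 CPM in M + iBRD9. With RANKL it was at 2.17 to 2.94 CPM against 0.618 to 1.72 CPM, and its averaged change was -1.32 ± 0.15.

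Stab1, Siglec1 and Mrc1, which code for surface receptors of macrophages, also fell. Stab1, which codes for stabilin-1, a receptor for modified lipoproteins and apoptotic cells (ENSMUSG00000042286, chromosome 14), was among the more abundant of the called genes. Its level was 3693, 3745, 3517 and 3088 CPM in M + vector and 2293, 2237, 2166 and 1917 CPM in M + iBRD9. With RANKL it was 1662, 1582, 1580 and 1597 CPM under vector and 958, 981, 919 and 953 CPM under iBRD9. The averaged change was -0.73 ± 0.04 (adjusted p = 2.91e-15), with -0.71 ± 0.06 without and -0.75 ± 0.03 with RANKL. Siglec1, a sialic acid-binding lectin of macrophages that interferon also induces, fell by 0.76 on the log2 scale, from 351 to 419 CPM to 206 to 262 CPM without RANKL and from 351 to 442 CPM to 217 to 248 CPM with it. Mrc1, the mannose receptor, moved less, with an averaged change of -0.31 ± 0.03. Its level was 1957 to 2116 CPM in M + vector against 1597 to 1808 CPM in M + iBRD9, and 483 to 512 CPM against 367 to 398 CPM with RANKL.

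Ctsk (ENSMUSG00000028111, chromosome 3) codes for cathepsin K, with which osteoclasts degrade collagen. It stood at 4.96, 6.75, 6.53 and 7.23 CPM in M + vector and 1.69, 3.93, 3.28 and 2.32 CPM in M + iBRD9. In the RANKL cultures, where it was higher, it stood at 14.4, 16.3, 14.8 and 15.0 CPM under vector and 6.11, 4.63, 5.49 and 6.01 CPM under iBRD9. The averaged change was -1.33 ± 0.12 (adjusted p = 4.22e-09). Ly6a, the Sca-1 surface antigen and an interferon-responsive gene, went from 8.49 to 10.3 CPM to 2.41 to 4.79 CPM without RANKL and from 23.4 to 36.1 CPM to 9.76 to 12.2 CPM with it. Its averaged change was -1.34 ± 0.10. Further falls among the 12 largest whose libraries did not overlap were Arg1, arginase-1 (-0.92 ± 0.16), Kdr, a VEGF receptor (-0.88 ± 0.09), the metalloproteinase gene Mmp27 (-0.78 ± 0.07) and Stra6l, a receptor for retinol-binding protein (-0.75 ± 0.08).

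**Figure D2:**
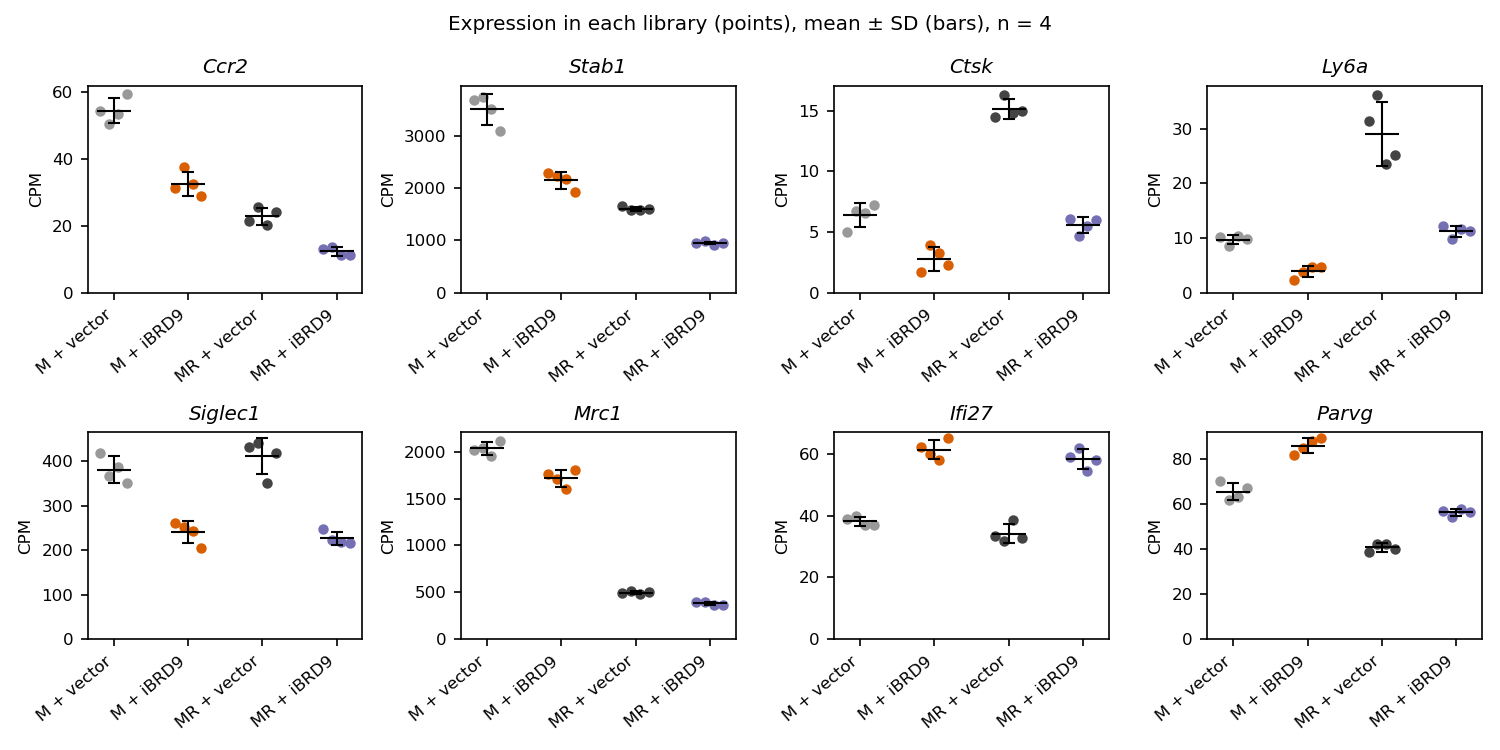
CPM in each of the 4 libraries per group (points) with mean ± SD (bars, n = 4) for 8 genes. Ccr2, Stab1, Ctsk, Ly6a, Siglec1 and Mrc1 are lower under iBRD9 in both RANKL states, and Ifi27 and Parvg are higher in both, with no overlap between vector and iBRD9 libraries.

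Among the genes of at least 5 CPM whose libraries did not overlap, the rises reached 0.73 and the falls -1.34. Ifi27, an interferon-inducible gene of the mitochondrial and nuclear membranes (ENSMUSG00000064215, chromosome 12), was at 39.0, 39.9, 36.9 and 37.1 CPM in M + vector and 62.2, 59.9, 57.9 and 65.2 CPM in M + iBRD9. With RANKL it was at 33.3, 31.7, 38.6 and 32.9 CPM under vector and 59.0, 61.9, 54.3 and 58.0 CPM under iBRD9. Its averaged change of 0.73 ± 0.05 (adjusted p = 1.43e-12) went against the ISG list it belongs to. Its neighbour Ifi27l2a changed by -0.17 ± 0.06 (adjusted p = 0.13). Parvg, an adaptor that links integrins to actin, rose by 0.43 ± 0.04, from 62.0 to 70.4 CPM to 81.8 to 89.3 CPM without RANKL and from 38.6 to 42.4 CPM to 54.3 to 57.7 CPM with it. Cxcr3, a chemokine receptor, rose by 0.55 ± 0.09 while Ccr2 and Ccr3 fell. Also among the 12 largest such rises were Lamtor1, a lysosomal anchor protein (0.37 ± 0.04), Aldoc, a glycolytic aldolase (0.37 ± 0.04), Fblim1, a filamin-binding adaptor (0.35 ± 0.04), and Lyl1, a haematopoietic transcription factor (0.31 ± 0.04).

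Nt5dc2 rose by 0.38 ± 0.05, and its 3′ end overlaps that of Stab1 on the opposite strand by 112 bases. The strand setting of the counting is not stated in the sources used here, so reads within those bases cannot be assigned to a gene. The same holds where Lamtor1, Lyl1, Evl, Sqstm1, Atp6v1b2, Brd2, Selenop, Csf1r and Irf7 overlap a gene on the other strand. Nt5dc2 also answered by different amounts in the RANKL states, 0.56 ± 0.05 without and 0.20 ± 0.04 with RANKL (adjusted p of the difference = 0.0019).

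Most ISGs fell. Of 72 tested members of the type I list, 48 fell (66.7%, against 2.92% of all tested genes), 1 rose (Ifi27) and 23 did not pass the test. The median log2 change was -0.21 over the list and 0.00036 over all tested genes. It was -0.20 in the libraries without RANKL and -0.23 in those with RANKL, and the interaction test called 0 members by edgeR (9 at an unadjusted p below 0.05) and 3 by DESeq2. A member not called there may still differ between the states by a small amount. Under the 22 alternatives the number called lower ran from 44 to 53. The list was drawn up with earlier results of these data known, so its count is a description. In bulk RNA, fewer cells of a type and less RNA per cell cannot be told apart.

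The members span the pathway. Among its transcription factors, Irf7, the amplifier of interferon production, was at 121 to 141 CPM in M + vector and 93.2 to 121 CPM in M + iBRD9, whose highest library all but met the lowest vector library. It was at 300.2 to 362 CPM against 220 to 267 CPM with RANKL, where the groups lay apart. Its averaged change was -0.36 ± 0.05 (adjusted p = 2e-05). Stat2, a subunit of the factor ISGF3, changed by -0.29 ± 0.03, with -0.29 in each state, while Irf9, its DNA-binding partner, gave 0.03 ± 0.04 (adjusted p = 0.73). Of 25 interferon receptors and signal transducers, 1 rose (Ifngr2, 0.13 ± 0.03) and 1 fell (Tlr7, the sensor of single-stranded RNA, -0.46 ± 0.05). The call of Ifngr2 was lost without any of 6 single libraries, M + vector replicate 2, 3 or 4, M + iBRD9 replicate 3 or 4, or MR + iBRD9 replicate 1, with an adjusted p of up to 0.080. These shares, 1 of 25 in each direction, are near those over all tested genes (2.04% higher, 2.92% lower). The interaction was called for 4 members, Tlr7, Tlr8, Ifnar2 and Irf8, and for 2.08% of all tested genes. Tlr8, also a sensor of single-stranded RNA, changed by 0.24 ± 0.05 without and -0.24 ± 0.05 with RANKL.

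Antiviral effectors and related genes moved by modest amounts. The 2′-5′-oligoadenylate synthase gene Oas3 changed by -0.26 ± 0.04 and the OAS-like gene Oasl1 by -0.41 ± 0.06. The tetratricopeptide protein gene Ifit1 changed by -0.36 ± 0.06, and the ubiquitin-like modifier Isg15 by -0.33 ± 0.06. The membrane protein gene Ifitm3, which blocks viral entry, changed by -0.30 ± 0.03, and the cytosolic nucleic acid sensor gene Ifi211 by -0.46 ± 0.05. Of 15 tested interferon-inducible GTPases, which act on pathogen vacuoles, 7 fell (46.7%, against 2.92% of all tested genes) and 8 did not pass the test. The former included Irgm1 (-0.32 ± 0.04), Ifi47 (-0.36 ± 0.05) and Iigp1 (-0.70 ± 0.16). Ifi47 overlaps Olfr56 on the same strand, so their reads may be mixed.

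The Schlafen genes, growth regulators of myeloid and lymphoid cells, sit together on chromosome 11, and 6 of 7 tested there were called lower (2.92% of all tested genes were). Slfn4 changed most. It was at 16.9 to 20.9 CPM in M + vector and 8.31 to 10.8 CPM in M + iBRD9, and at 66.7 to 91.0 CPM against 40.8 to 45.9 CPM with RANKL, an averaged change of -0.93 ± 0.06 (adjusted p = 5.69e-12). Slfn1 followed with -0.72 ± 0.11, and Slfn2 was not called (-0.08 ± 0.03, adjusted p = 0.21). Members of this family, and of the Ifi200, Phf11 and Ly6 families, are close copies between which reads could be split.

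**Figure D3:**
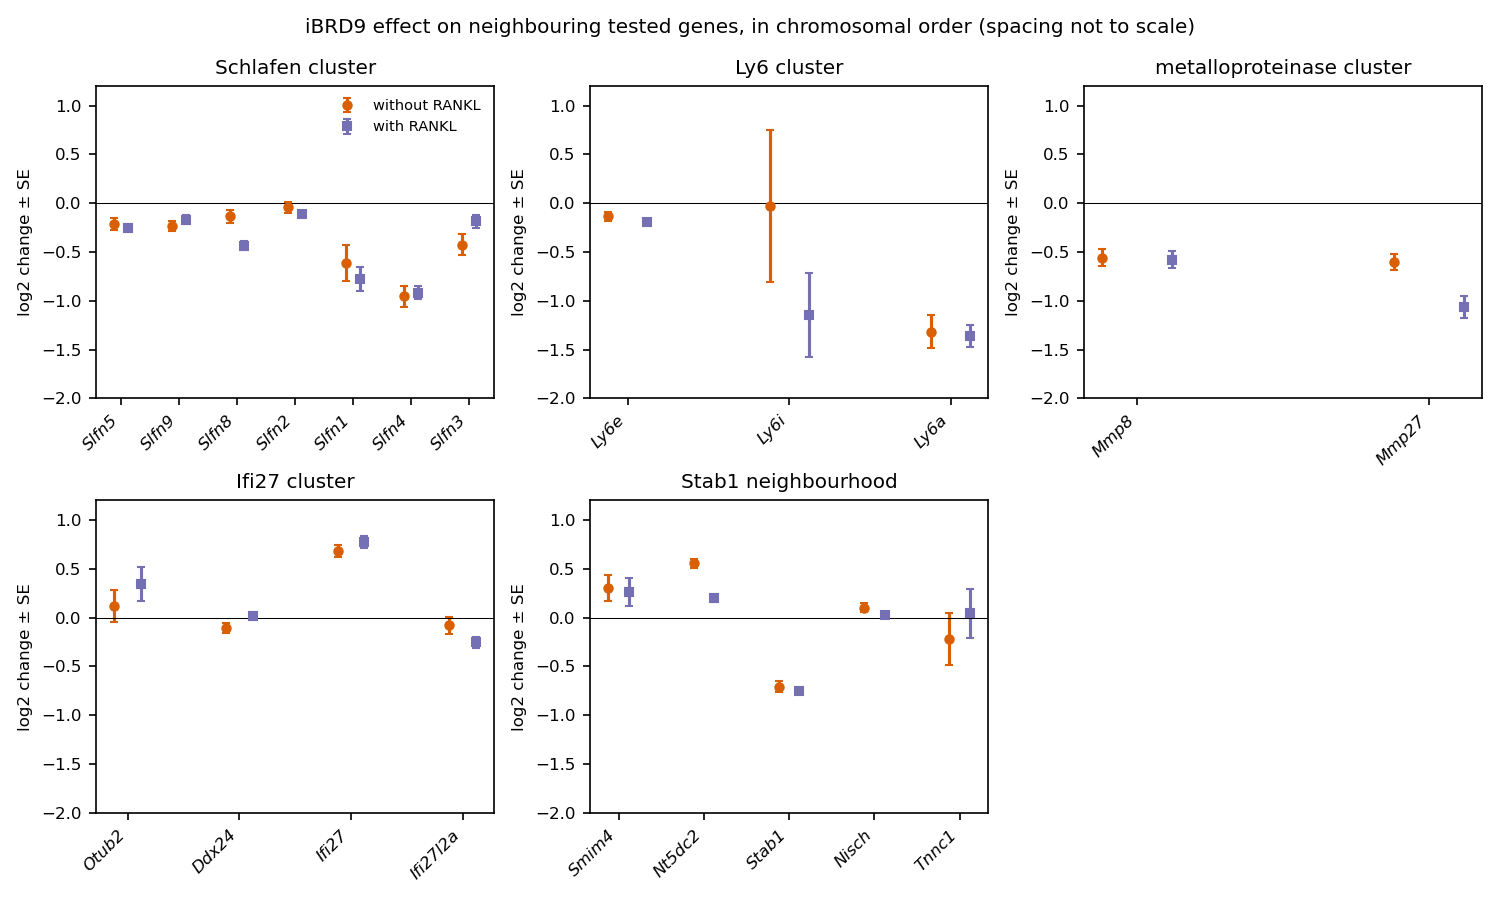
Log2 change of iBRD9 against vector ± SE for neighbouring tested genes in 5 stretches of the genome, without RANKL (circles) and with RANKL (squares), from fits that share no library. In the Stab1 panel Stab1 is below 0 and its neighbour Nt5dc2 above it, and Ifi27 is above 0 while Ifi27l2a is not.

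Promoter sequence was compared across these genes because they moved together. Windows of 250 bases before to 50 after the start site were taken from RefSeq (GRCm38.p6) by symbol, and 9306 of 11548 tested symbols matched. The core of the interferon-stimulated response element (ISRE) bound by ISGF3 and other IRF factors was searched on both strands as GAAA, any 2 bases and GAAA. Shares are of genes with a window, counting a gene if any of its windows matched. The core was found in 17.3% of genes called lower (48 of 277) and 2.13% of genes called higher (4 of 188). It was in 4.04% of all tested genes and 3.99% of all genes with a window. Among the ISGs called lower it was in 52.6% (20 of 38), and among the genes called lower outside that list in 11.7% (28 of 239). By p, the first genes in the latter set were Ctss, a lysosomal cysteine protease, Irgm1, Spp1, which codes for osteopontin, and Ifi206. That set is no set of genes without interferon response, since it holds Irgm1, Tgtp2, Igtp and Irgm2 of the GTPase list and further interferon-induced genes such as Ifi206 and Ddx60.

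By the same count, the AP-1 letters TGANTCA were in 13.0% of genes called lower and 11.2% of those called higher, against 6.15% of all tested genes. All motifs were searched on both strands. TTCNNNGAA (GAS) was in 9.03% of lower, 11.2% of higher and 8.20% of tested genes, the NF-kB letters, GGGA followed by any 4 bases and CC, in 26.7%, 37.8% and 30.3%, GGAAGT (ETS/PU.1) in 35.0%, 31.4% and 33.6%, and TGTTTAC (forkhead) in 2.89%, 3.72% and 3.16%. An ISRE match overlapped a GAS match in 12 windows of tested genes and an NF-kB match in 3. A match is a description of letters and not a measured binding site.

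The promoters of 4 called ISGs are shown 5′ to 3′ on the gene's strand, with the ISRE core in capitals, because they differ in where the match lies. In Ifi211 (chr1:173912997-173913296, minus strand) the match begins 37 bases before the start site and in Phf11b (chr14:59341281-59341580, minus strand) 50 bases before it. In Stat2 (chr10:128270248-128270547, plus strand) it lies 222 bases before the start and reads on the opposite strand, and Ifitm3 (chr7:141010695-141010994, minus strand) holds 2 matches just after the start.
Ifi211: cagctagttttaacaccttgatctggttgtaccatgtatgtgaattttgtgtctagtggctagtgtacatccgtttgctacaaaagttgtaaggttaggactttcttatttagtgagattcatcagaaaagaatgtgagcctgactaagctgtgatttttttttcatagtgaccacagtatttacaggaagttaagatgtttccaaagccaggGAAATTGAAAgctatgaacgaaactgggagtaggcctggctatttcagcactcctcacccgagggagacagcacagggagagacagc
Phf11b: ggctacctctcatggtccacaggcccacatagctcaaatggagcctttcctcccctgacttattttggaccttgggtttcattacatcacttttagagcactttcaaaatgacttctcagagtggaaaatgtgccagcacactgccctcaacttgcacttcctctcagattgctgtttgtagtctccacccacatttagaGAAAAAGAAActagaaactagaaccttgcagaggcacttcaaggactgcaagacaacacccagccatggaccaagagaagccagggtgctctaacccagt
Stat2: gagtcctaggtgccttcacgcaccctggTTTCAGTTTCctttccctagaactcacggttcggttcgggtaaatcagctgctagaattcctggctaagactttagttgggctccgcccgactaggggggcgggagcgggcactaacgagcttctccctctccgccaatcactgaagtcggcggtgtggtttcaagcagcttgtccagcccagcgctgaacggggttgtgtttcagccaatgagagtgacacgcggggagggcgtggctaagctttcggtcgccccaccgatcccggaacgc
Ifitm3: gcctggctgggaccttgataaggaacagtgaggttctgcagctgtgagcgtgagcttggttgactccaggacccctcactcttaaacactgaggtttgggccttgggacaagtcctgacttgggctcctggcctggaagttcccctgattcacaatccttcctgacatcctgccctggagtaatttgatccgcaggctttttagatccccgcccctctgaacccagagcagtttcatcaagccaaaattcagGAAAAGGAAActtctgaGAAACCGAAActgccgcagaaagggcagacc
The averaged log2 changes of these genes were -0.46 ± 0.05 for Ifi211, -0.38 ± 0.05 for Phf11b, -0.29 ± 0.03 for Stat2 and -0.30 ± 0.03 for Ifitm3.

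Most osteoclast genes were not called in the average. Of 28 tested members of the differentiation and resorption list, 2 fell (Ctsk and Cd47, 7.14%) and 1 rose (3.57%), with a median of 0.035. Of all tested genes 2.92% fell and 2.04% rose. The medians were -0.02 without and 0.11 with RANKL, and 4 members had a called interaction (Jdp2, Fosl2, Sirpa and Adam8), as had 2.08% of all tested genes. With RANKL, the AP-1 genes Jdp2 (0.36 ± 0.06), Fosl2 (0.42 ± 0.07) and Fos (0.21 ± 0.06), the fusion gene Dcstamp (0.56 ± 0.14), Adam8 (0.27 ± 0.03) and Cd9 (0.16 ± 0.04) were called higher in the fit of that state, and the metalloproteinase gene Mmp14 lower (-0.70 ± 0.17). None of these 7 was called in the average or without RANKL. Cd47, a ligand that takes part in precursor fusion, changed by -0.11 ± 0.03, a call lost in 10 alternatives with an adjusted p of up to 0.090, on leaving out M + vector replicate 1 or 2, any MR + vector replicate but 3, or any MR + iBRD9 replicate, or with total counts as the scale. Mmp9, the gelatinase of osteoclasts, was at 68.3 to 80.6 CPM in M + vector and 82.0 to 99.5 CPM in M + iBRD9, and at 645 to 703 CPM against 761 to 804 CPM with RANKL. The groups did not overlap in either state, and the averaged change was 0.27 ± 0.04 (adjusted p = 8.83e-06). Acp5, which codes for tartrate-resistant acid phosphatase, gave 0.17 ± 0.07 (adjusted p = 0.16), and Nfatc1, the master transcription factor of the lineage, 0.10 ± 0.04 (adjusted p = 0.17).

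Among 11 tested repressors of osteoclastogenesis, 3 fell (27.3%, against 2.92% of all tested genes), a count that ran from 1 to 4 under the alternatives. It was 1 with total counts as the scale or without M + vector replicate 2, M + iBRD9 replicate 3, MR + vector replicate 3 or MR + iBRD9 replicate 1 or 3. Id2, an inhibitor of helix-loop-helix factors, changed by -0.30 ± 0.06, Bcl6 by -0.16 ± 0.05 (adjusted p = 0.049) and Foxp1 by -0.12 ± 0.03. The call of Foxp1 was lost in 11 of 22 alternatives, without any of M + vector replicates 1, 2 and 4, M + iBRD9 replicates 1 and 3, MR + vector replicates 3 and 4, and MR + iBRD9 replicates 1 and 3, or with total counts or no filter, with an adjusted p of up to 0.096. Of 21 NF-kB targets 3 rose (14.3%, against 2.04% of all tested genes), and 2 to 5 did under the alternatives. They were Sqstm1, the autophagy receptor p62 (0.20 ± 0.03), Icam1, an adhesion molecule (0.14 ± 0.04), and Relb, a subunit of NF-kB itself (0.19 ± 0.06, adjusted p = 0.048). Of 20 chemokine and receptor genes 4 fell (Ccl6, Ccr2 and Ccr3 among them) and 1 rose, Ccl3, an inflammatory chemokine (0.27 ± 0.05). These shares were 20% lower and 5% higher, against 2.92% and 2.04% of all tested genes.

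Of 20 tested genes of the amino acid and unfolded protein stress responses, 8 fell (40%, against 2.92% of all tested genes). Under the alternatives 7 to 10 were called lower. Asns, asparagine synthetase, changed by -0.33 ± 0.05, and was at 31.7 to 37.4 CPM in M + vector against 22.5 to 29.2 CPM in M + iBRD9, and at 47.4 to 50.5 CPM against 37.7 to 40.2 CPM with RANKL. The serine synthesis genes Phgdh and Psat1 changed by -0.27 ± 0.06 and -0.20 ± 0.04, and Hspa5, the endoplasmic reticulum chaperone BiP, by -0.17 ± 0.03. Among 31 tested lysosome and proton pump genes 5 rose and 3 fell, against 2.04% and 2.92% of all tested genes. The rises numbered 3 without M + vector replicate 4 or MR + vector replicate 3 or 4. Atp6v1b2, a subunit of the proton pump, rose by 0.15 ± 0.03, and Psap, the precursor of the saposins, changed by -0.20 ± 0.03 (adjusted p = 9.99e-06).

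Subunits of the targeted complex were nearly level. Of 13 non-canonical BAF genes 1 rose, Bicral (0.22 ± 0.06), a call lost without M + iBRD9 replicate 3 (adjusted p = 0.055). Of 15 other BAF and BET genes 1 rose, Brd2, a BET reader of acetylated histones (0.16 ± 0.03). Among all tested genes 2.04% were called higher. Brd7 gave changes within 0.05 of 0 in each state.

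**Figure D4:**
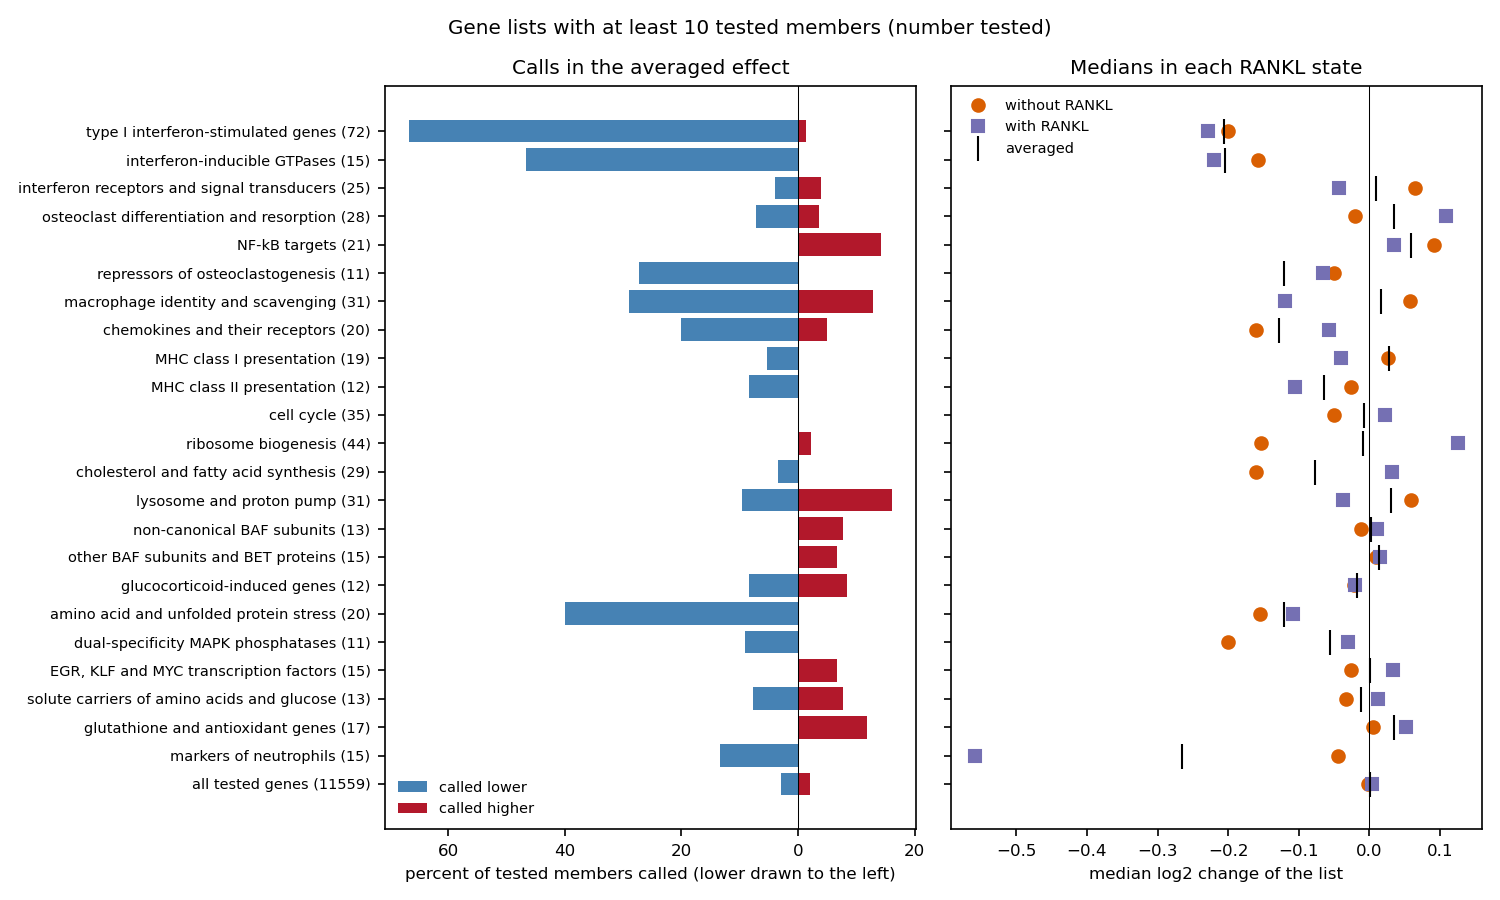
Left, the percent of tested members called lower (blue, drawn to the left) and higher (red) in the averaged comparison for lists of at least 10 tested genes, with all tested genes at the bottom. Right, the median log2 change of each list without RANKL (circles), with RANKL (squares) and averaged (bars), where the type I ISG medians lie between -0.20 and -0.23 and those of ribosome biogenesis lie on both sides of 0.

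Markers of neutrophils also moved. Of 15 tested, 2 were called lower (2.92% of all tested genes were), Mmp8 (-0.57 ± 0.06) and Elane (-0.61 ± 0.17). The count was 4 without M + iBRD9 replicate 2 and 1 without M + vector replicate 1, MR + vector replicate 2 or MR + iBRD9 replicate 2 or 4. The list's median was -0.27, with -0.04 without and -0.56 with RANKL. The call of Elane was lost without any of M + vector replicates 1 and 4, MR + vector replicates 2 and 4, or MR + iBRD9 replicates 2 and 4, with an adjusted p of up to 0.071. The summed level of the 18 markers was 144 to 155 CPM in M + vector, 138 to 175 in M + iBRD9, 121 to 144 in MR + vector and 84.8 to 107 in MR + iBRD9. It separated the treatments with RANKL only, and none of the markers was at 0 in every library. Mmp8 lies beside Mmp27 on chromosome 9 and fell by like amounts in both states, -0.56 ± 0.09 and -0.58 ± 0.09. The part of such cells in the falls was not tested.

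To see how far the averaged effect was shared, each RANKL state was fitted alone, on 8 libraries that the other fit did not use. Without RANKL 454 genes were called (3.93%), 263 lower (2.28%) and 191 higher (1.65%), and with RANKL 487 (4.21%), 325 lower (2.81%) and 162 higher (1.40%). Of these 113 were called in both, 24.9% of the first set and 23.2% of the second. Among the 113, 76 were lower in both, 28 higher in both and 9 opposite. Of the 454, 63.9% had the same sign with RANKL, and of the 487, 68.8% had the same sign without, against 53.7% of all tested genes. The medians were nearer to 0 in the other state's libraries for each set. They were -0.23 and -0.11 for genes called lower with RANKL, 0.24 and 0.04 for those called higher with RANKL, -0.29 and -0.05 for those called lower without RANKL, and 0.29 and 0.06 for those called higher without it. Each set was chosen by the test in its own state, so a median nearer to 0 in the other can follow from that choice alone. Across the 11559 genes, which are not independent replicates, the changes in the 2 states had a Pearson r of 0.13. Noise also lowers the overlap and r, the median SE being 0.078 without and 0.071 with RANKL. With total counts as the scale, 54.4% rather than 66.7% of the calls with RANKL were lower. The counts without RANKL were 205 to 302 on leaving out any M + vector replicate or M + iBRD9 replicate 2 or 3, and 851 without M + iBRD9 replicate 4. The 162 higher calls with RANKL became 92 to 105 without MR + vector replicate 2 or 4 or MR + iBRD9 replicate 4.

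Vector and iBRD9 libraries did not overlap, in the same direction in both states, for 181 genes (1.57% of all tested), 127 lower (1.10%) and 54 higher (0.467%). For 24 further genes they did not overlap in opposite directions. The 12 largest rises and falls were taken from such genes, so their lack of overlap follows from the choice.

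**Figure D5:**
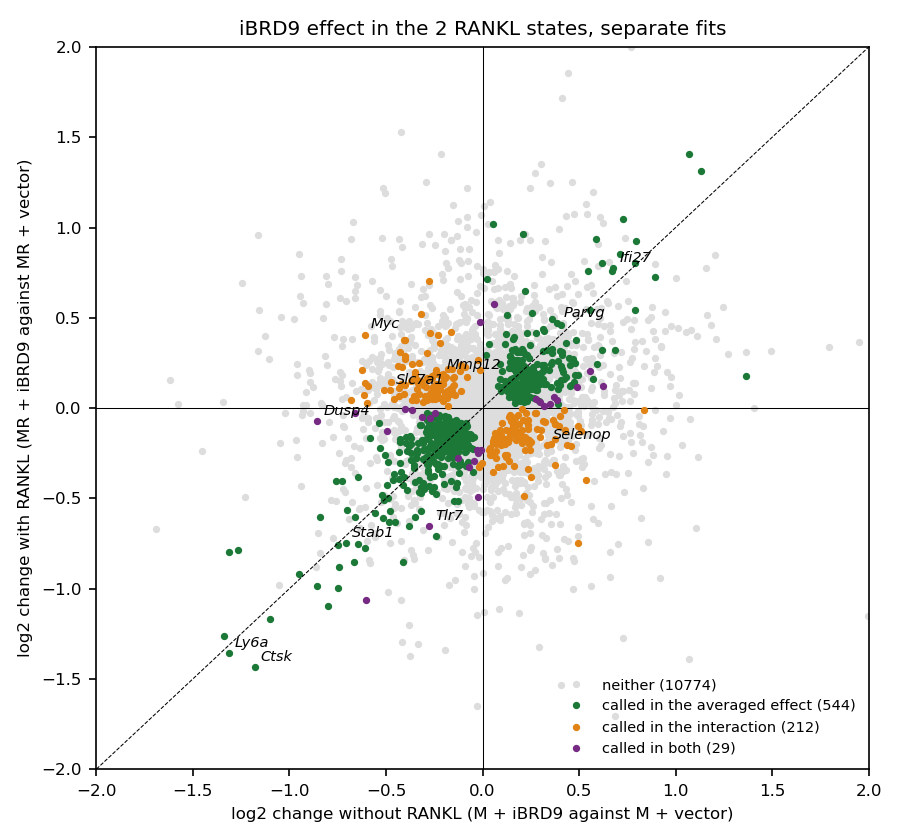
Log2 change of iBRD9 against vector without RANKL (x axis) and with RANKL (y axis), 1 point per tested gene, from separate fits, with 9 genes outside the axes. The 544 genes called in the averaged effect alone (green) lie along the diagonal by construction, the 212 called in the interaction alone (orange) lie away from it, and 29 (purple) were called in both.

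Pooling the states lowered the median SE of the log2 change to 0.055, from 0.078 without and 0.071 with RANKL. Of the 573 genes called in the average, 104 were also called in both single fits, 139 without RANKL only and 158 with RANKL only. The averaged fit did not call 211 genes called without RANKL and 225 called with RANKL. It called 172 genes that neither single fit did, 90 higher and 82 lower, with a median size of 0.17. All 3 fits share libraries, so this is a matter of precision and not separate evidence. The 8 of smallest p were Evl, an actin regulator (-0.14 ± 0.03), Unc119, a lipid-binding trafficking factor (0.19 ± 0.04), Fem1b, a ubiquitin ligase adaptor (-0.15 ± 0.03), Smg9, a factor of nonsense-mediated decay (0.21 ± 0.05), Ddah2 (-0.30 ± 0.07), Zcchc2 (-0.17 ± 0.04), Nupr1, a stress-induced chromatin protein (-0.31 ± 0.07), and Pxk (-0.16 ± 0.04). Evl, for example, was at 174, 176, 174 and 177 CPM in M + vector and 159, 149, 169 and 156 CPM in M + iBRD9. In the RANKL cultures it was at 145, 146, 152 and 154 CPM against 139, 137, 138 and 134 CPM. Its single fits gave -0.15 ± 0.05 (adjusted p = 0.082) and -0.12 ± 0.04 (adjusted p = 0.080).

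An average can also hide responses that differ. The interaction test, the change with RANKL minus the change without, called 241 genes (2.08%), 125 lower (1.08%) and 116 higher (1.00%), and 29 of them were also called in the average. The 241 became 72 to 159 on leaving out M + vector replicate 3, M + iBRD9 replicate 2, MR + vector replicate 2 or 4 or MR + iBRD9 replicate 4, and 544 without M + iBRD9 replicate 4. With total counts as the scale, 32.7% rather than 51.9% of its calls were lower. The transcription factor gene Myc was near 0 in the average (0.03 ± 0.14). It was at 10.2, 11.3, 11.7 and 9.82 CPM in M + vector and 5.66, 4.94, 8.57 and 9.01 CPM in M + iBRD9. In the RANKL cultures it was at 35.3, 23.2, 37.8 and 27.5 CPM under vector and 37.0, 35.7, 40.3 and 50.9 CPM under iBRD9. It was thus lower in all M + iBRD9 libraries and overlapped with RANKL, with changes of -0.61 ± 0.16 and 0.41 ± 0.11 and an interaction of 1.01 ± 0.21 (adjusted p = 0.0097).

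Of 44 tested genes of ribosome biogenesis, 1 was called in the average, Nop10 (0.27 ± 0.06), near the share of all tested genes called higher (2.04%). The averaged median was -0.0089. The medians were -0.15 without and 0.13 with RANKL, and 12 members had a called interaction, against 2.08% of all tested genes. That count was 4 without MR + vector replicate 2 or MR + iBRD9 replicate 4, 7 without M + vector replicate 3 or 4 or M + iBRD9 replicate 2, 8 without M + vector replicate 2, 22 without M + iBRD9 replicate 4 and 19 without the filter on low counts. Nop58, a core protein of box C/D snoRNPs, changed by -0.48 ± 0.08 without RANKL and 0.14 ± 0.05 with RANKL, where it was not called (adjusted p = 0.11). Of 29 genes of cholesterol and fatty acid synthesis 1 was called in the average, Scd2 (-0.13 ± 0.03), close to the 2.92% of all tested genes. That count was 3 without M + iBRD9 replicate 4 or MR + iBRD9 replicate 2 and 2 without MR + vector replicate 3, without the filter, with DESeq2 or with the replicate block. The medians were -0.16 without and 0.03 with RANKL. A called interaction was found for 4 members, Hmgcs1, Msmo1, Hsd17b7 and Elovl6, against 2.08% of all tested genes.

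Macrophage identity genes split. Of 31 tested, 9 fell (29.0%) and 4 rose (12.9%) in the average, against 2.92% and 2.04% of all tested genes. A called interaction was found for 9, against 2.08% of all tested genes. That count was 4 without MR + vector replicate 2 and 5 without M + vector replicate 3 or MR + iBRD9 replicate 4. Among those that fell in the average were Mrc1, Msr1, a scavenger receptor (-0.23 ± 0.04), and the proteases Ctss (-0.21 ± 0.03) and Ctsc (-0.24 ± 0.03). Cd36, a fatty acid and lipoprotein receptor, rose by 0.19 ± 0.03, from 3432 to 3841 CPM to 4097 to 4588 CPM without RANKL and from 1456 to 1573 CPM to 1639 to 1708 CPM with it. Csf1r, the M-CSF receptor, was not called in the average (0.04 ± 0.03). It gave 0.16 ± 0.04 without RANKL, where M + vector was at 1489 to 1556 CPM and M + iBRD9 at 1667 to 1760 CPM, and -0.08 ± 0.03 with RANKL (adjusted p of the difference = 0.0029).

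The genes with the smallest interaction p were Selenop, a selenium carrier (0.33 ± 0.05 without and -0.21 ± 0.04 with RANKL), Hgsnat, a lysosomal acetyltransferase (0.49 ± 0.04 and 0.11 ± 0.03), Slc7a1, a cationic amino acid transporter (-0.48 ± 0.07 and 0.10 ± 0.04), Cgnl1 (-0.29 ± 0.05 and 0.12 ± 0.04), the macrophage elastase gene Mmp12 (-0.22 ± 0.05 and 0.18 ± 0.03) and Lgmn, a lysosomal protease (0.24 ± 0.04 and -0.07 ± 0.03). Selenop was at 1280 to 1416 CPM in M + vector and 1583 to 1879 CPM in M + iBRD9, and at 332 to 384 CPM against 287 to 323 CPM with RANKL. The treatments did not overlap in either state, and the order turned. Dusp4, a phosphatase that switches off MAP kinases, was called in the average (-0.41 ± 0.09), but its fall lay in the libraries without RANKL, at 21.0 to 26.8 CPM against 11.7 to 14.4 CPM. With RANKL it was at 39.6 to 50.8 CPM and 40.9 to 48.4 CPM, overlapping throughout (adjusted p of the difference = 0.00056). Tlr7 fell in both states, by more with RANKL (-0.65 ± 0.05) than without (-0.28 ± 0.05, adjusted p of the difference = 0.0029).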

How the data were processed

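RNA from C57BL/6 BMDMs was sequenced in 16 libraries. The authors deposited raw counts per gene, made with HTSeq from HISAT2 alignments to GRCm39 after Cutadapt trimming. The authors also deposited FPKM values made from the same counts (largest relative difference 7.68e-06), which were not used for tests. The annotation release and strand setting are not given in the sources used here. Of 21898 genes listed, 15697 had a count and 42 rows shared a symbol.

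Counts were tested with edgeR 4.0.16 in R 4.3.3 (quasi-likelihood test, two-sided, TMM factors, filterByExpr by group, which removed 10339 genes) with RANKL and iBRD9 as additive terms (13 residual degrees of freedom, common biological coefficient of variation 6.24%). Adjusted p-values are Benjamini-Hochberg over all 11559 tested genes, and called means below 0.05. Single-state fits used 8 libraries each (6 degrees of freedom), and the interaction used a mean per group. CPM used TMM factors, and counting limits depth for genes of few counts. The fits were tested on simulated data. That check required recovery only of changes of a fold of 2, larger than most called here. No 2 replicates differed by as little as sampling noise.

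Named genes were the 12 largest called rises and falls of at least 5 CPM without overlap in either state, the 8 of smallest p called in the average only, up to 2 called members per list and direction, the 6 of smallest interaction p, and 20 fixed genes. Enpp6, Lat, Rufy4, 2410004P03Rik, Slfn1, Slfn2, neighbouring genes and further list members were named after their values were seen. The gene lists and their members were chosen with earlier results of these data known. Lists not described in the report (cell cycle, MHC class I and II, glucocorticoid-induced genes, MAPK phosphatases, EGR, KLF and MYC factors, solute carriers, antioxidants and stromal markers) had 0 to 2 members called in either direction. Of the dendritic markers 3 of 10 were tested and 1 was called. Of the erythroid and megakaryocyte markers 2 of 11 were tested and 0 were called. Some genes are not reported here. Alternatives were other scalings, no filter, DESeq2 1.42.0, 1 mean per group, a replicate block and each library left out. The study's threshold was a further alternative for the averaged gene counts only, not for named genes or lists.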

Additional observations from a re-analysis of the deposited data

Results flagged for a closer look

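Among the 88 named genes, 352 groups of 4 libraries were examined for a library far from the other 3, and 15 held one, where chance gives about 1 group in 20. In M + vector replicate 4 the level of Dtx3 was 35.0 CPM (41.4 to 41.8 in the others), that of Unc119 42.9 CPM, that of Nfatc1 58.9 CPM and that of Prdx1 2531 CPM (2309 to 2343 in the others). In M + iBRD9 replicate 2 the level of H2-T23 was 213.6 CPM (173 to 179 in the others), that of Bst2 270.1 CPM (191 to 203), that of Stat2 170.6 CPM (156 to 157) and that of Csf1r 1760.0 CPM. Elsewhere in M + iBRD9, Fem1b was at 130.5 CPM in replicate 1 and Ddah2 at 16.2 CPM in replicate 3. In MR + vector replicate 2 Unc119 was at 39.6 CPM. In MR + iBRD9, Siglec1 was at 248 CPM and Stra6l at 16.7 CPM in replicate 1, Lgmn at 736 CPM in replicate 3 and Gstt1 at 8.58 CPM in replicate 4.

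The change under iBRD9 differed between the RANKL states, by the interaction test of edgeR, for 15 of the named genes. The difference, with RANKL minus without, was positive for Myc (1.01), Dusp4 (0.78), Slc7a1 (0.57), Cgnl1 (0.40) and Mmp12 (0.39). It was negative for Selenop (-0.55), Mmp27 (-0.47), Tlr7 (-0.39), Hgsnat (-0.38), Nt5dc2 (-0.36), Slc40a1 (-0.32), Lgmn (-0.31), Irf8 (-0.25), Csf1r (-0.25) and Psap (-0.16). Of these, 12 kept the call under all 21 alternatives. The call of Psap was lost in 15, that of Mmp27 in 11 and that of Irf8 in 3 (without M + iBRD9 replicate 2, MR + vector replicate 2 or MR + iBRD9 replicate 4), with adjusted p-values of up to 0.14, 0.13 and 0.078.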

How the results depend on the processing

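The study's threshold was applied to the averaged gene counts only and is not among the 22 alternatives here. Of 573 genes called in the average, 75 higher and 109 lower reached its fold of 1.2. Of 72 called named genes, 64 kept the call under all 22 alternatives, and none of the 72 changed direction under them. The other 8 were Foxp1 (lost in 11), Cd47 (10), Mnt (9), Ifngr2 and Elane (6 each), Ctsl (4), Bicral (1, without M + iBRD9 replicate 3) and Gstt1 (1, with a mean per group). Slc7a1 and Lgmn, not called, were called with a mean per group, and Slc7a1 without a filter.

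The averaged count ran from 415 (the study's threshold, 186 lower) to 709 (DESeq2) and, leaving out a library, from 408 to 618, with 148 to 256 higher and 260 to 363 lower. With all 16 libraries in one fit, 320 genes were called with RANKL (83 higher) and 787 without (356 higher, 431 lower). Leaving out a library gave 335 to 577 with RANKL (92 to 189 higher, 241 to 388 lower), 205 to 851 without (86 to 406 higher, 117 to 445 lower) and 72 to 544 in the interaction (31 to 318 higher, 41 to 226 lower). The interaction gave 388 calls without a filter (228 higher), 382 with DESeq2 (221 higher) and 189 higher with total counts. Without a filter 290 genes were called higher without RANKL. The cause was not tested.

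The labels do not say that a shared replicate number marks a shared animal, culture or batch, so samples were not treated as paired. Of 16 correlations of their deviations from the group means, from -0.014 to 0.14, 2 were over 0.1. With the replicate number as a block, the averaged count was 646 (273 higher, 373 lower), that without RANKL 1100.0 (504 higher, 596 lower) and that of the interaction 421 (214 higher, 207 lower). Depth limits genes under 1 CPM, of which 0.552% were called.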
